A study of Medicago sativa with 9 samples.

Results

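Sulfate transporters are membrane proteins that carry sulfate, the main source of sulfur for plants, into the root, through the vascular tissue, into chloroplasts and out of the vacuole. In plants their transcripts are known to be higher when sulfur is short and lower when it is ample. Sulfate transporters also carry selenate, whereas selenite, the form of selenium used here, is known to enter plant cells largely through phosphate transporters. In the deposited gene table of alfalfa (Medicago sativa), 133 of 164632 genes have a description that names a sulfate transporter. Of these, 22 had a value of at least 1 FPKM (a level scaled by the length of the transcript and the depth of the library) in at least 3 of the 9 libraries, as did 50878 genes of the whole table. The 22 genes fall into 6 loci of 24586, a locus being all expressed genes of 1 description on the copies of 1 chromosome, added up.

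Leaves were sampled at 0, 12 and 48 h of treatment with Se(IV), which is selenite, at 100 mg per kg, and each time has 3 libraries. All libraries come from selenium-treated leaves of alfalfa, and the 0 h libraries are the start of the same treatment. No libraries without selenium at 12 or 48 h were analysed here, so treatment and time of sampling cannot be told apart. The labels name neither the plants' age or cultivar nor separate plants for the 3 libraries of a time. A p-value here thus sets a difference between times only against the spread of these libraries. The labels do not say whether that spread is one between plants.

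Each library held between 39936347 and 56137145 counts, of which the 22 genes took 32880 to 57542 at 0 h, 5966 to 7371 at 12 h and 34778 to 40567 at 48 h. Some libraries stood closer together than others. Over the expressed genes, counts of 12 h replicates 1 and 2 differed by a chi-square of 53.6 per gene and those of 48 h replicates 1 and 3 by 72.4, against 136 to 231 for the other pairs of 1 time. Earlier work on these data found that the 3 libraries of 12 h, and 48 h replicates 1 and 3, also draw alike on chromosome copies. Changes are therefore given also with these libraries summed into 1, which leaves 12 h as 1 sample. By the chi-square, pairs of 12 h replicate 3 were at 136 and 142, between the closest pairs and the 175 to 231 of the rest. Markers of the leaf were present: transcripts of mesophyll genes summed to between 110000 and 182600 FPKM in every library. Within that list, chlorophyll a-b binding proteins summed to 29520 to 53760 FPKM at 0 h, 12600 to 13120 at 12 h and 62180 to 75190 at 48 h. Chloroplastic carbonic anhydrase went the other way, with 10020 to 11960 FPKM at 0 h, 17200 to 20500 at 12 h and 7784 to 12730 at 48 h. The small subunit of Rubisco overlapped, at 71040 to 101100 FPKM at 0 h, 79980 to 92690 at 12 h and 58140 to 98090 at 48 h. Of the root and nodule list, 79 of 85 genes had no count, among them all 43 of leghemoglobin, the oxygen carrier of root nodules. The list summed to at most 2.845 FPKM in a library. That came from casparian strip membrane protein (up to 1.945 FPKM) and early nodulin-75 (up to 1.585 FPKM), and 1 gene of the list passed the expression filter.

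The summed level of the family was low at 12 h and had overlapping ranges at 0 and 48 h. It was 542.2, 354.6 and 584.7 FPKM in the 3 libraries of 0 h, 66.95, 50.31 and 55.76 FPKM at 12 h, and 389.5, 433.3 and 342.4 FPKM at 48 h. Every 12 h library lay below every library of the other times. All 6 loci fell at 12 h against 0 h by the quasi-likelihood test of edgeR at an adjusted p of 0.05, where 6.87% of all loci were called lower. All 6 rose at 48 h against 12 h, where 10.1% of all loci were called higher. Sulfate transporters 3.1, 2.1, 1.3 and 4.1 include genes that reached 1 FPKM in no 12 h library, so these counts of loci are not independent of the filter. With the alike libraries summed, 12 h is 1 sample, so that fit cannot decide on calls at any locus. Its log2 changes lay between -4.68 and -1.18 at 12 h against 0 h and between 1.70 and 4.88 at 48 h against 12 h. RNA was taken from whole leaves, so fewer cells of a type and less RNA per cell cannot be told apart.

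The FPKM of all 3 libraries of 12 h lay below those of 0 h at 6 of 6 loci, against 11.1% of all loci, and those of 48 h lay above 12 h at 6 of 6, against 12.9%. The median log2 change over the 6 loci was -2.97 at 12 h against 0 h and 3.27 at 48 h against 12 h, whereas over all loci it was 0.01 and -0.07. These counts and medians are not independent of the filter, since some of the sums include genes that reached 1 FPKM in no 12 h library. Scaling by library totals alone moved the median of all loci to 0.46 and -0.62 and that of the 6 to -2.52 and 2.70. No locus changed direction in these comparisons under any scaling. The mesophyll markers, which are chlorophyll a-b binding proteins, the small subunit of Rubisco and chloroplastic carbonic anhydrase, had 36 of 89 expressed genes lower at 12 h, where 4.29% of all single genes were, and 49 higher at 48 h against 12 h, where 6.96% were. Their part in the result was not tested.

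**Figure D1:**
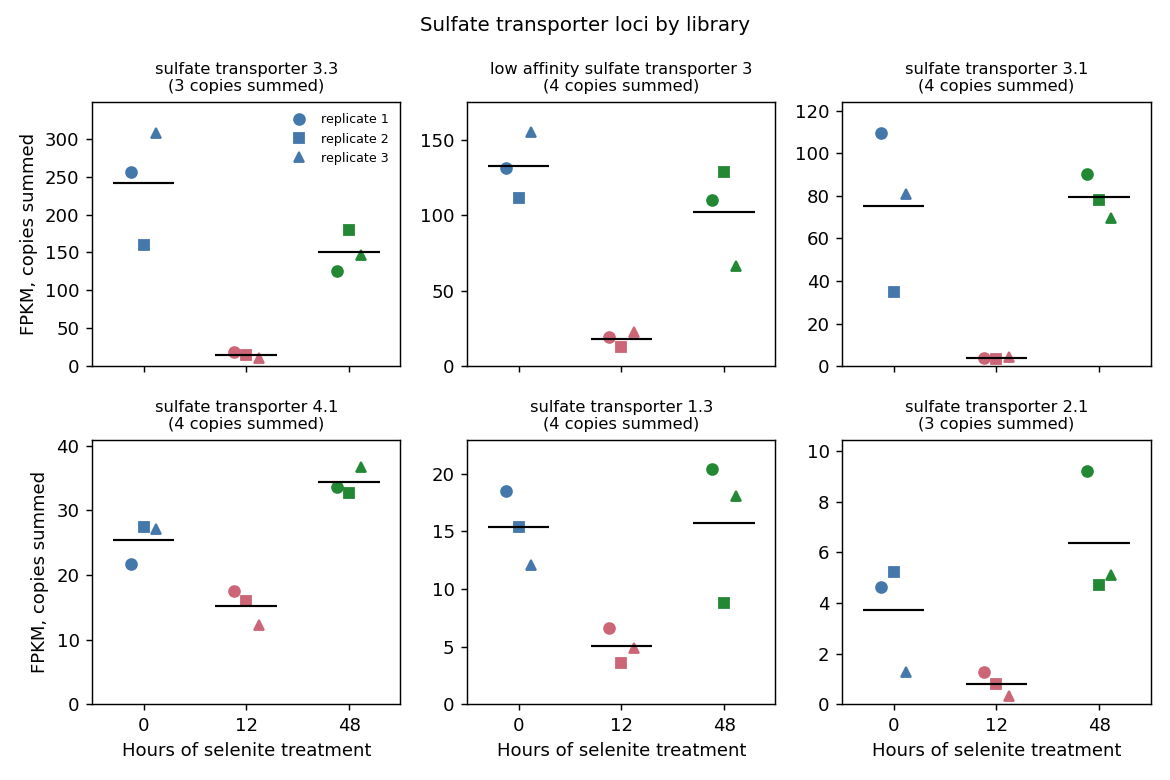
FPKM of the 6 sulfate transporter loci, copies summed, against hours of selenite treatment; each point is 1 library, its shape is the replicate and the line is the mean of the 3 libraries of a time. The 12 h libraries lie below all 0 h and all 48 h libraries at each locus.

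Sulfate transporter 3.3 was the most abundant member at 0 h. It belongs to the largest group of the plant family, and in Arabidopsis members of it have been placed in the chloroplast envelope. Its expressed copies are MS.gene006936 on chromosome 4.3 (27408419 to 27415086), MS.gene059517 on chromosome 4.4 (27616574 to 27623249) and MS.gene56083 on chromosome 4.4 (28079511 to 28086200), the second number of a chromosome being its copy. MS.gene059517 and MS.gene56083 lie on the same chromosome copy, so for them copy means only a gene of the locus. Coordinates are those of the deposited table, whose genome build is not given in the sources used here. The locus had 256.3, 160.0 and 308.1 FPKM at 0 h, 18.83, 14.11 and 10.98 FPKM at 12 h, and 125.6, 179.9 and 146.8 FPKM at 48 h. The 12 h libraries stood well apart, and the 48 h range overlapped that of 0 h. It fell 22.6-fold at 12 h (log2 change -4.50 ± 0.37 SE, edgeR adjusted p = 0.000606) and rose 14.7-fold from 12 to 48 h (3.88 ± 0.36, adjusted p = 0.000727).

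Sulfate transporter 3.1 is of the same group as 3.3. Its copies are MS.gene49382 on chromosome 1.1 (53771465 to 53778302), MS.gene50542 on 1.2 (54767608 to 54774458), MS.gene036194 on 1.3 (51393057 to 51401773) and MS.gene39949 on 1.4 (58525797 to 58532636). It stood at 109.7, 34.89 and 80.68 FPKM at 0 h, at 3.661, 3.443 and 4.424 FPKM at 12 h, and at 90.18, 78.17 and 69.56 FPKM at 48 h. The 3 libraries of 0 h were widely spread, with replicate 2 lowest, and those of 12 h were close together. Transcripts fell 26.2-fold at 12 h (log2 change -4.71 ± 0.43 SE, edgeR adjusted p = 0.000966) and rose 29.3-fold from 12 to 48 h (4.87 ± 0.43, adjusted p = 0.000656). At 12 h its change lay close to that of 3.3.

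Low affinity sulfate transporter 3 carries the name of a transporter first described in the legume Stylosanthes hamata, where it belongs with the low affinity carriers of the vascular tissue. Its copies are MS.gene30733 on chromosome 3.1 (60348528 to 60353875), MS.gene29014 on 3.2 (66466916 to 66472715), MS.gene35623 on 3.3 (63717960 to 63723507) and MS.gene29854 on 3.4 (72418852 to 72424653). Its level was 131.3, 111.7 and 155.3 FPKM at 0 h, 19.08, 12.44 and 22.86 FPKM at 12 h, and 110.5, 129.1 and 66.26 FPKM at 48 h. Again the 12 h libraries were lowest, and 2 of the 48 h libraries lay below the whole 0 h range. A 9.93-fold fall at 12 h (log2 change -3.31 ± 0.37 SE, edgeR adjusted p = 0.00216) was followed by an 8.11-fold rise from 12 to 48 h (3.02 ± 0.37, adjusted p = 0.00192).

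Sulfate transporter 2.1 is known in Arabidopsis as a low affinity carrier of the vascular tissue that moves sulfate from root to shoot. It was the least abundant member, with MS.gene052232 on chromosome 3.2 (74819680 to 74828368), MS.gene75452 on 3.3 (73070908 to 73078699) and MS.gene045087 on 3.4 (81346512 to 81353858). The locus had 4.616, 5.230 and 1.282 FPKM at 0 h, 1.274, 0.7953 and 0.3095 FPKM at 12 h, and 9.221, 4.725 and 5.125 FPKM at 48 h. The lowest 0 h library lay just above the highest 12 h library. It fell 6.15-fold at 12 h (log2 change -2.62 ± 0.65 SE, edgeR adjusted p = 0.0407) and rose 11.4-fold from 12 to 48 h (3.51 ± 0.68, adjusted p = 0.0115). The fall did not pass without 0 h replicate 1 or 2, without any 1 of the 12 h libraries, or without 48 h replicate 1 or 3, with adjusted p from 0.0579 to 0.133. It also missed the threshold under library totals (0.0620), limma with a pseudocount of 1 (0.0615) or 0.1 (0.0607), and only the times compared (0.0707).

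Sulfate transporter 1.3 belongs to the high affinity group, whose Arabidopsis member of this name is known from the phloem. Its copies are MS.gene30731 on chromosome 3.1 (60414985 to 60418655), MS.gene29013 on 3.2 (66516056 to 66519719), MS.gene35622 on 3.3 (63751952 to 63755635) and MS.gene29852 on 3.4 (72469068 to 72472740). Libraries held 18.52, 15.40 and 12.12 FPKM at 0 h, 6.651, 3.539 and 4.910 FPKM at 12 h, and 20.39, 8.816 and 18.10 FPKM at 48 h. The groups of 0 and 12 h were separate, and 48 h replicate 2 lay between them. It fell 4.09-fold at 12 h (log2 change -2.03 ± 0.35 SE, edgeR adjusted p = 0.00979) and rose 4.43-fold from 12 to 48 h (2.15 ± 0.35, adjusted p = 0.00570). Phloem markers summed to 450.5 to 1433 FPKM at 0 h, 754.2 to 1449 FPKM at 12 h and 352.7 to 802.3 FPKM at 48 h. Within that list, phloem proteins summed to 400.9 to 566.2 FPKM at 0 h, 324.0 to 393.7 FPKM at 12 h and 343.5 to 643.9 FPKM at 48 h, and sieve element occlusion genes to 49.54 to 1012 FPKM, 427.5 to 1055 FPKM and 9.223 to 158.4 FPKM. The 12 h libraries thus lay below those of 0 h for the phloem proteins and overlapped them for the others. Their part in the result was not tested.

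The copies of sulfate transporter 1.3 and of low affinity sulfate transporter 3 lie side by side. On each of the 4 copies of chromosome 3, a low affinity gene on the minus strand is followed by a 1.3 gene on the plus strand. The gaps are 61.1 kb on chromosome 3.1, 43.3 kb on 3.2, 28.4 kb on 3.3 and 44.4 kb on 3.4, with 0 or 1 annotated gene between them and none that was expressed. The pair differed in level at 0 h, where the low affinity locus was between 111.7 and 155.3 FPKM and 1.3 between 12.12 and 18.52 FPKM.

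Sulfate transporter 4.1 is described as chloroplastic in the table, while in Arabidopsis members of its group are known to release sulfate from the vacuole. Its copies are MS.gene061401 on chromosome 7.1 (76049228 to 76057747), MS.gene43089 on 7.2 (76738237 to 76746762), MS.gene92478 on 7.3 (76791506 to 76800008) and MS.gene98424 on 7.4 (79098424 to 79106868). It had 21.76, 27.39 and 27.18 FPKM at 0 h, 17.45, 15.99 and 12.28 FPKM at 12 h, and 33.67, 32.61 and 36.63 FPKM at 48 h. No ranges overlapped: the 12 h libraries were lowest and the 48 h libraries highest. The fall at 12 h was 2.28-fold (log2 change -1.19 ± 0.20 SE, edgeR adjusted p = 0.00999), and the rise from 12 to 48 h was 3.19-fold (1.67 ± 0.21, adjusted p = 0.00194), the smallest among the 6 loci both times.

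At 48 h against 0 h, edgeR called none of the 6 loci, where 3.94% of all loci were called in either direction. Only sulfate transporter 4.1 had an unadjusted p under 0.05, as did 4958 of all 24586 loci. DESeq2 likewise called none of the 6, where it called 1761 of all loci lower and 1652 higher. The log2 changes were -0.62 ± 0.32 SE for 3.3 (adjusted p = 0.332), -0.29 ± 0.34 for low affinity 3 (0.717), 0.16 ± 0.37 for 3.1 (0.875), 0.48 ± 0.20 for 4.1 (0.222), 0.12 ± 0.33 for 1.3 (0.906) and 0.89 ± 0.62 for 2.1 (0.488). The median over the 6 was 0.14, beside -0.05 over all loci. FPKM ranges were separate at 1 of 6 loci, 4.1, against 24.5% of all loci. Any 2 of the 3 comparisons share the libraries of 1 time, so they are not independent of each other.

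**Figure D2:**
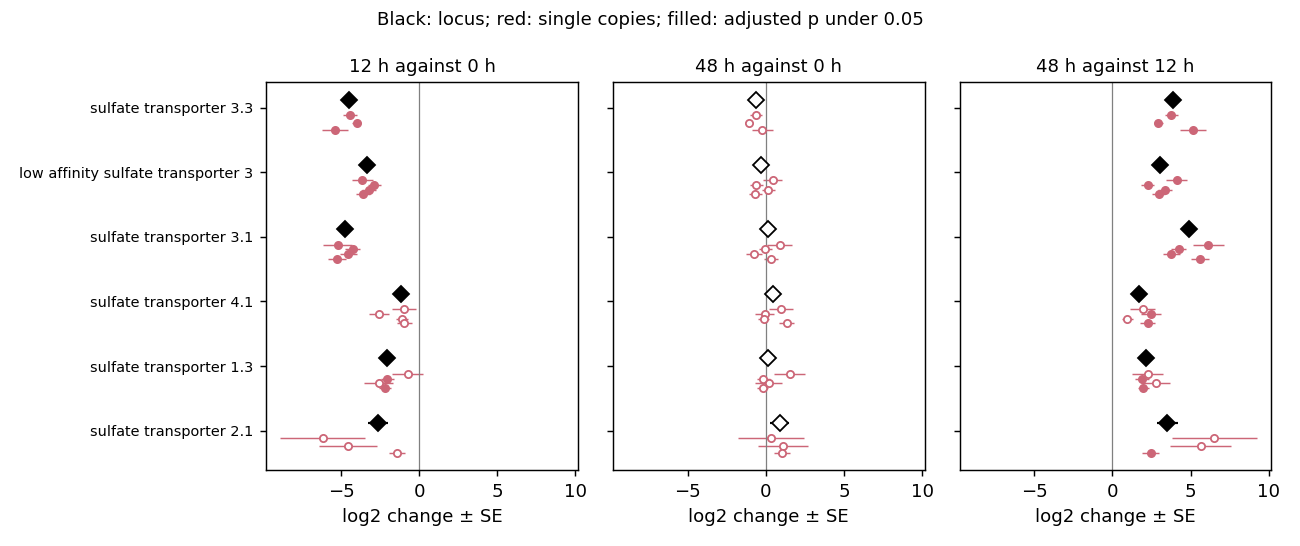
Log2 change ± SE (horizontal axis) of each sulfate transporter locus (black diamonds) and of its single copies (red points) in the 3 comparisons; filled symbols passed an edgeR adjusted p of 0.05. Symbols lie left of 0 at 12 h against 0 h, right of 0 at 48 h against 12 h, and on both sides at 48 h against 0 h, where all are open.

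The make-up of the family differed at 12 h, where the measured falls of the loci were of unequal size. Sulfate transporter 3.3 held 47.3%, 45.1% and 52.7% of the family's FPKM at 0 h, 28.1%, 28.0% and 19.7% at 12 h, and 32.2%, 41.5% and 42.9% at 48 h. Sulfate transporter 4.1 held 4.01%, 7.73% and 4.65% at 0 h, 26.1%, 31.8% and 22.0% at 12 h, and 8.64%, 7.53% and 10.7% at 48 h. The 12 h shares of 3.3 were the lowest and those of 4.1 the highest, with no overlap with either other time. The share of 1.3 was likewise highest at 12 h without overlap. It was 2.07% to 4.34% at 0 h, 7.03% to 9.93% at 12 h and 2.03% to 5.29% at 48 h. The share of 3.1 was 9.84% to 20.2% at 0 h, 5.47% to 7.93% at 12 h and 18.0% to 23.1% at 48 h. The share of low affinity 3 overlapped between all times, from 19.4% to 41% over the 9 libraries. Within each library, the FPKM of 3.1 over that of 4.1 was 5.04, 1.27 and 2.97 at 0 h, 0.210, 0.215 and 0.360 at 12 h, and 2.68, 2.40 and 1.90 at 48 h. Thus 3.1 exceeded 4.1 in every library of 0 and 48 h and in none of 12 h. Whether the loci differ in their fold change was not tested.

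**Figure D3:**
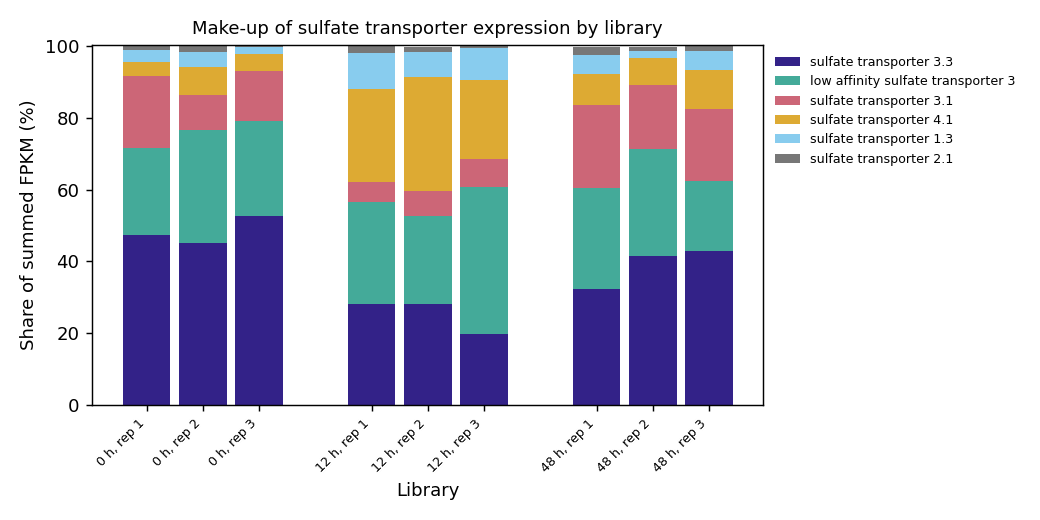
Share of the summed FPKM of the 6 sulfate transporter loci (vertical axis, %) held by each locus (colours) in each of the 9 libraries. Sulfate transporter 4.1 takes 22.0% to 31.8% in the 12 h libraries and at most 10.7% in the others.

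By mean FPKM, the order at 0 h was 3.3 (241.5 ± 75.2 SD, n = 3), low affinity 3 (132.7 ± 21.9), 3.1 (75.1 ± 37.7), 4.1 (25.4 ± 3.19), 1.3 (15.3 ± 3.2) and 2.1 (3.71 ± 2.12). Ranges of neighbours in this order were all separate. At 12 h low affinity 3 (18.1 ± 5.27), 4.1 (15.2 ± 2.67) and 3.3 (14.6 ± 3.95) led with overlapping ranges. They were followed by 1.3 (5.03 ± 1.56) and 3.1 (3.84 ± 0.515), which overlapped as well, and by 2.1 (0.793 ± 0.482). At 48 h, 3.3 (150.7 ± 27.4), low affinity 3 (102.0 ± 32.3) and 3.1 (79.3 ± 10.4) were not separate from their neighbours, 4.1 (34.3 ± 2.08) stood apart below them, and 1.3 (15.8 ± 6.13) overlapped with 2.1 (6.36 ± 2.48).

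Tests on single copies called fewer members. At 12 h against 0 h, 13 of the 22 copies fell and none rose, against 4.29% of all single genes called lower. At 48 h against 12 h, 16 of the 22 rose, against 6.96% called higher. At 48 h against 0 h edgeR called none of the copies, where 1.14% of all single genes were called in either direction. An unadjusted p under 0.05 was found for 2 copies, and for 8366 of all 50878 genes. DESeq2 called 1 copy lower, and of all genes 2885 lower and 2694 higher. Limma with quality weights called 1 copy lower and 1 higher, and of all genes 2054 and 1069. The called copies at 12 h were 3 of 3 for 3.3, 4 of 4 for low affinity 3, 4 of 4 for 3.1, 2 of 4 for 1.3, and none of the 4 of 4.1 or the 3 of 2.1. Those copies of 4.1 had log2 changes of -2.57 to -0.94 and those of 2.1 of -6.17 to -1.42. Fewer copies were called when 12 h replicate 1 or 2 was left out (8 lower at 12 h either way). Of all 50878 genes, 734 and 773 were then called lower, against 2185 with all libraries. At 48 h against 12 h, 8 were higher without 12 h replicate 2 and 10 without 48 h replicate 1. Of all genes, 1320 and 1774 were then called higher, against 3543 with all libraries. Of the 22 copies, 6 reached 1 FPKM in no 12 h library and so passed the expression filter through the other times alone. They belong to 3.1, 2.1, 1.3 and 4.1 and are part of the sums of those loci. The counts over copies, and those over loci, are therefore no independent sign of a fall at 12 h. With no filter, 6 of 13 sulfate transporter loci were called lower at 12 h by edgeR, where 1326 of all 45490 loci were. They are the same 6 loci as above. Near-identical copies can exchange reads, and how the authors treated reads that match several copies is not given in the sources used here.

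By its mean over all 9 libraries, the most abundant single copy was MS.gene006936 of sulfate transporter 3.3, though not at 12 h, where MS.gene29014 of low affinity 3 had a mean of 8.42 FPKM against 6.04 FPKM. It had 88.52, 61.54 and 140.2 FPKM at 0 h, 6.576, 6.029 and 5.520 FPKM at 12 h, and 46.42, 76.84 and 57.44 FPKM at 48 h. Its 12 h libraries were tightly grouped and far below the others. It fell at 12 h by 4.42 on the log2 scale (SE 0.43, edgeR adjusted p = 0.00260). A second 3.3 copy, MS.gene56083, had 76.16, 39.43 and 81.46 FPKM at 0 h, 4.169, 1.703 and 0.4323 FPKM at 12 h, and 42.15, 70.23 and 51.06 FPKM at 48 h. It gave 3.96% to 22.2% of the counts of the locus at 12 h and 24.6% to 39.0% at the other times, without overlap.

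Use of the copies also differed between libraries of 1 time. MS.gene061401 of 4.1 had 6.867, 9.040 and 0.5522 FPKM in the 3 libraries of 0 h, that is 31.6%, 33.2% and 2.06% of the counts of its locus. In replicate 3 the locus was nevertheless not low, since MS.gene92478 had 17.07 FPKM there, against 9.569 and 12.77 FPKM in the other two. For 2.1, MS.gene052232 had 170 and 154 counts in 0 h replicates 1 and 2 and none in replicate 3, and 227 and 150 counts in 48 h replicates 1 and 3 and none in replicate 2. MS.gene045087 gave 95.0% of the counts of 2.1 in 0 h replicate 3 and 85.5% to 100.0% at 12 h, against 32.0% to 51.1% in the other libraries. For 1.3, MS.gene30731 gave 25.6% and 27.1% of the counts in 48 h replicates 1 and 3 and 4.33% in replicate 2. The share of counts that would have to move between copies to make 48 h replicates 1 and 3 equal was 1.38% to 9.5% over the 6 loci, the lowest for low affinity 3. For pairs of 12 h libraries it was 8.13% to 18.2% at 3.3 and 9.97% to 18.6% at 3.1, against 5.06% to 11% and 9.85% to 25.2% for pairs of 0 h. At these loci the 12 h libraries were thus not closer in copy use than the 0 h libraries throughout.

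**Figure D4:**
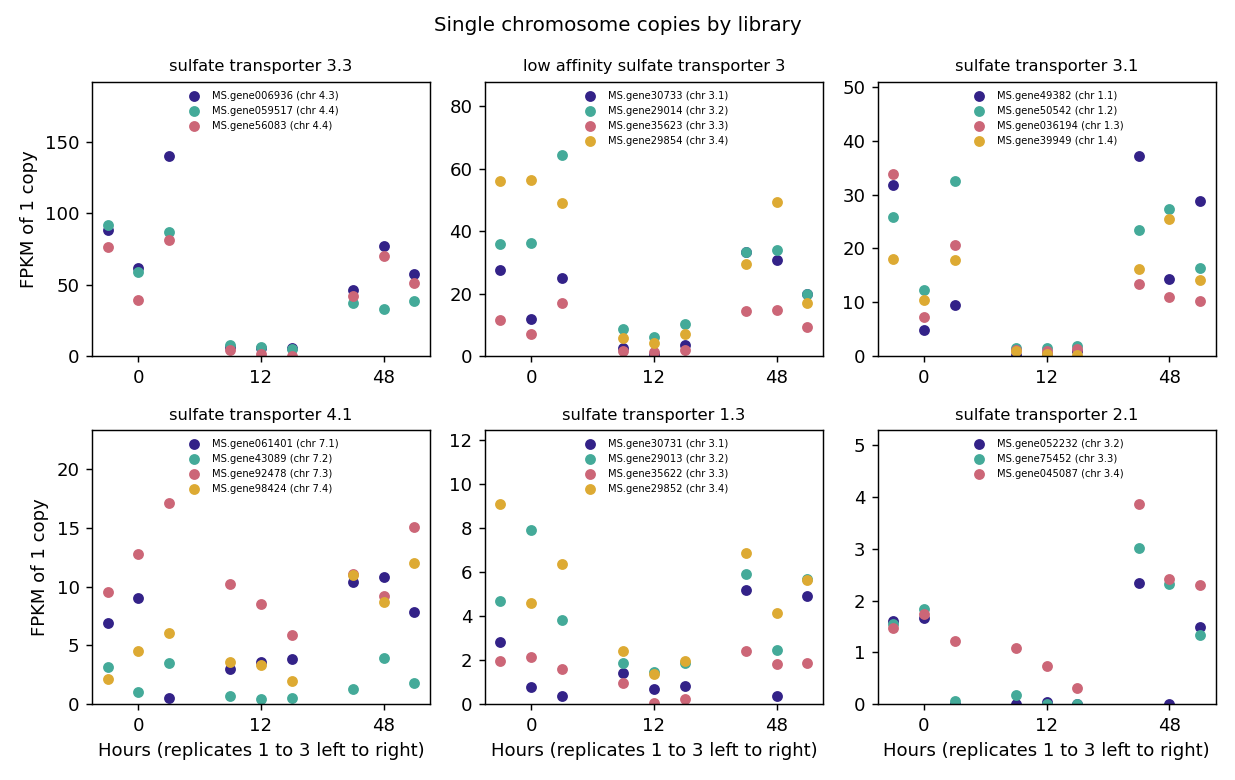
FPKM of each expressed gene (colours) of the 6 loci against hours of treatment, with replicates 1 to 3 from left to right at each time. MS.gene061401 of 4.1 is at 0.5522 FPKM in 0 h replicate 3 and MS.gene052232 of 2.1 is at 0 in 0 h replicate 3 and 48 h replicate 2.

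The other 111 genes with a sulfate transporter description did not reach the filter. Of these, 82 had no count in any library, among them all 74 that are described after a red clover (Trifolium pratense) protein, most of them as partial. The other 29 summed to between 2.36 and 9.95 FPKM per library and held 1.39% of the counts of all sulfate transporter genes. Genes just inside the filter were MS.gene052232 and MS.gene75452 of 2.1, which reached 1.60 and 1.84 FPKM in the last of the 3 libraries the filter asks for. Just outside were MS.gene61200 and MS.gene36287 of sulfate transporter 3.4, at 0.751 and 0.656 FPKM.

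The low members had no single pattern over time. Sulfate transporter 3.4, whose rice counterpart is known for distributing phosphorus, had a locus on chromosome 2 with 1.97, 4.53 and 0.552 FPKM at 0 h, 2.18, 0.766 and 0.656 FPKM at 12 h, and 0, 0.0661 and 0 FPKM at 48 h. Its isoform X1 on chromosome 4 had 4.07, 0.937 and 0.752 FPKM at 0 h, 0.316, 0.283 and 0 FPKM at 12 h, and 2.0, 0.710 and 0.660 FPKM at 48 h. Isoform X2 on chromosome 4 had 0.773, 0.693 and 0.531 FPKM at 0 h, 0.266, 0.107 and 0.0582 FPKM at 12 h, and 0.642, 0.346 and 0.208 FPKM at 48 h. The locus on chromosome 2 had its lowest mean at 48 h, and both isoforms on chromosome 4 had theirs at 12 h, like the 6 loci above the filter. A second locus of 1.3, on chromosome 5, was at 0 in all 0 h libraries and had 0.171, 1.10 and 0.812 FPKM at 12 h and 0, 0 and 0.0386 FPKM at 48 h. The high affinity sulfate transporter type 1 on chromosome 2, named like the uptake carriers of roots, reached at most 0.874 FPKM. In the edgeR fit with no filter, the smallest adjusted p over the 7 loci below the filter was 0.156 at 12 h against 0 h, 0.0895 at 48 h against 0 h and 0.0739 at 48 h against 12 h.

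Enzymes that use the sulfate were followed from lists of descriptions. ATP sulfurylase activates sulfate, and in the activation list 2 of 11 loci fell at 12 h and none rose, where 6.87% of all loci were called lower. ATP sulfurylase 2 had 188, 104 and 140.0 FPKM at 0 h, 29.2, 25.8 and 26.9 FPKM at 12 h, and 91.0, 173 and 65.0 FPKM at 48 h, with a log2 change of -2.83 at 12 h (edgeR adjusted p = 0.00518). Its 12 h libraries lay below all the others. ATP sulfurylase 1 went from 353 ± 45 to 208 ± 37.0 FPKM (log2 change -1.19, adjusted p = 0.0203). Both rose at 48 h against 12 h, by 2.54 and 0.98, where 10.1% of all loci were called higher. Adenylyl-sulfate kinase 3 fell between those times, from 35.8 ± 25.6 to 4.80 ± 2.02 FPKM (log2 change -2.41, adjusted p = 0.0183), where 7.15% of all loci were called lower.

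Adenylylsulfate reductase reduces the activated sulfate to sulfite, and sulfite reductase takes it on to sulfide. Of the 6 loci of this list, 3 fell at 12 h and none rose, and 2 rose at 48 h against 12 h. Among all loci, 6.87% were called lower at 12 h and 10.1% higher at 48 h against 12 h. The unplaced gene MS.gene02382, a 5'-adenylylsulfate reductase 3, had 614, 264 and 342 FPKM at 0 h, 10.6, 8.20 and 25.3 FPKM at 12 h, and 672, 872 and 432 FPKM at 48 h. Its groups at 0 and 12 h were far apart, with log2 changes of -5.21 at 12 h (edgeR adjusted p = 0.00226) and 6.01 from 12 to 48 h (adjusted p = 0.00109). The locus of the same description on chromosome 2 went from 660.0 ± 286 to 20.7 ± 15.5 and to 786 ± 185 FPKM, and the genes can exchange reads. Sulfite reductase had 77.1 ± 17.3 FPKM at 0 h and 41.8 ± 16.3 FPKM at 12 h (log2 change -1.30, adjusted p = 0.0439), and 37.9 ± 10.5 FPKM at 48 h.

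Cysteine synthesis, the step where sulfide enters amino acids, had 1 of 15 loci lower at 12 h and 1 higher at 48 h against 12 h, which was the same locus. These counts are close to the shares over all loci, 6.87% and 10.1%. The locus was serine acetyltransferase on chromosome 8, with 106 ± 17.3 FPKM at 0 h, 42.6 ± 4.93 FPKM at 12 h and 77.2 ± 38.5 FPKM at 48 h (log2 change -1.76 at 12 h, edgeR adjusted p = 0.0204). The list as a whole was at 602.8 ± 60.1 FPKM at 0 h and 643.2 ± 39.4 FPKM at 12 h. Sulfite oxidase, which turns sulfite back to sulfate, had 3 loci, of which edgeR called 0 and found 0 at an unadjusted p under 0.05 in each comparison. Their sum was 51.1 ± 5.11 FPKM at 0 h, 51.9 ± 9.61 FPKM at 12 h and 48.2 ± 13.3 FPKM at 48 h.

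Genes known as markers of sulfur shortage had 3 of 7 loci lower at 12 h and none higher, and 3 higher at 48 h against 12 h. The shares over all loci were 6.87% lower and 10.1% higher. SULFUR DEFICIENCY-INDUCED 1, a protein that in Arabidopsis restrains glucosinolate synthesis, had 37.8, 35.3 and 37.4 FPKM at 0 h, 2.86, 2.20 and 5.89 FPKM at 12 h, and 37.5, 33.5 and 15.1 FPKM at 48 h. The 0 h libraries were close together, and the 12 h libraries stood far below them (log2 change -3.76, edgeR adjusted p = 0.00381). RESPONSE TO LOW SULFUR 3 went from 265 ± 142 to 44.6 ± 7.62 and to 521 ± 336 FPKM (log2 change -3.04 at 12 h, adjusted p = 0.0214). Gamma-glutamylcyclotransferase 2-1, an enzyme of glutathione breakdown, went from 106 ± 27.1 to 36.4 ± 15.5 and to 180.0 ± 88.8 FPKM (log2 change -1.97 at 12 h, adjusted p = 0.0419). At 48 h against 0 h edgeR called 0 loci of the activation, reduction, cysteine, shortage and molybdate lists. Among all loci, 3.94% were called in either direction. An unadjusted edgeR p under 0.05 was found for 0, 1, 3, 0 and 0 loci of these lists, and for 4958 of all 24586 loci.

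Molybdate transporters are close relatives of the sulfate transporters, and 1 of 2 loci fell at 12 h, where 6.87% of all loci were called lower. Molybdate transporter 2 had 10.5, 5.34 and 5.0 FPKM at 0 h, 2.60, 2.13 and 2.64 FPKM at 12 h, and 4.68, 4.92 and 5.59 FPKM at 48 h. The 12 h libraries were lowest, with a log2 change of -1.90 (edgeR adjusted p = 0.00905) and a rise of 1.54 by 48 h (adjusted p = 0.0139).

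Phosphate carriers did not share 1 pattern: of 8 loci, 1 fell and 1 rose at 12 h, where 6.87% of all loci were called lower and 3.57% higher. At 48 h, 2 rose against 0 h (3.94% of all loci called in either direction) and 2 against 12 h (10.1% called higher). The chloroplast carrier 2-1 fell from 117 ± 16.7 to 33.6 ± 5.38 FPKM (log2 change -2.47, edgeR adjusted p = 0.00182) and rose by 2.70 from 12 to 48 h. The probable carrier 1-3 had 49.1, 55.6 and 24.2 FPKM at 0 h, 316, 294 and 112 FPKM at 12 h, and 556, 191 and 575 FPKM at 48 h. All its later libraries exceeded those of 0 h (log2 change 2.08 at 12 h, adjusted p = 0.0429, and 3.44 at 48 h against 0 h, adjusted p = 0.0192). Carrier 1-9 rose at 48 h as well, from 6.39 ± 2.24 FPKM at 0 h and 8.66 ± 2.31 FPKM at 12 h to 28.9 ± 18.1 FPKM (log2 change against 0 h 2.24, adjusted p = 0.0493). With the alike libraries summed, 12 h is 1 sample, so that fit cannot decide on the calls of these lists that involve 12 h. At 48 h against 0 h it called no locus of the whole table.

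**Figure D5:**
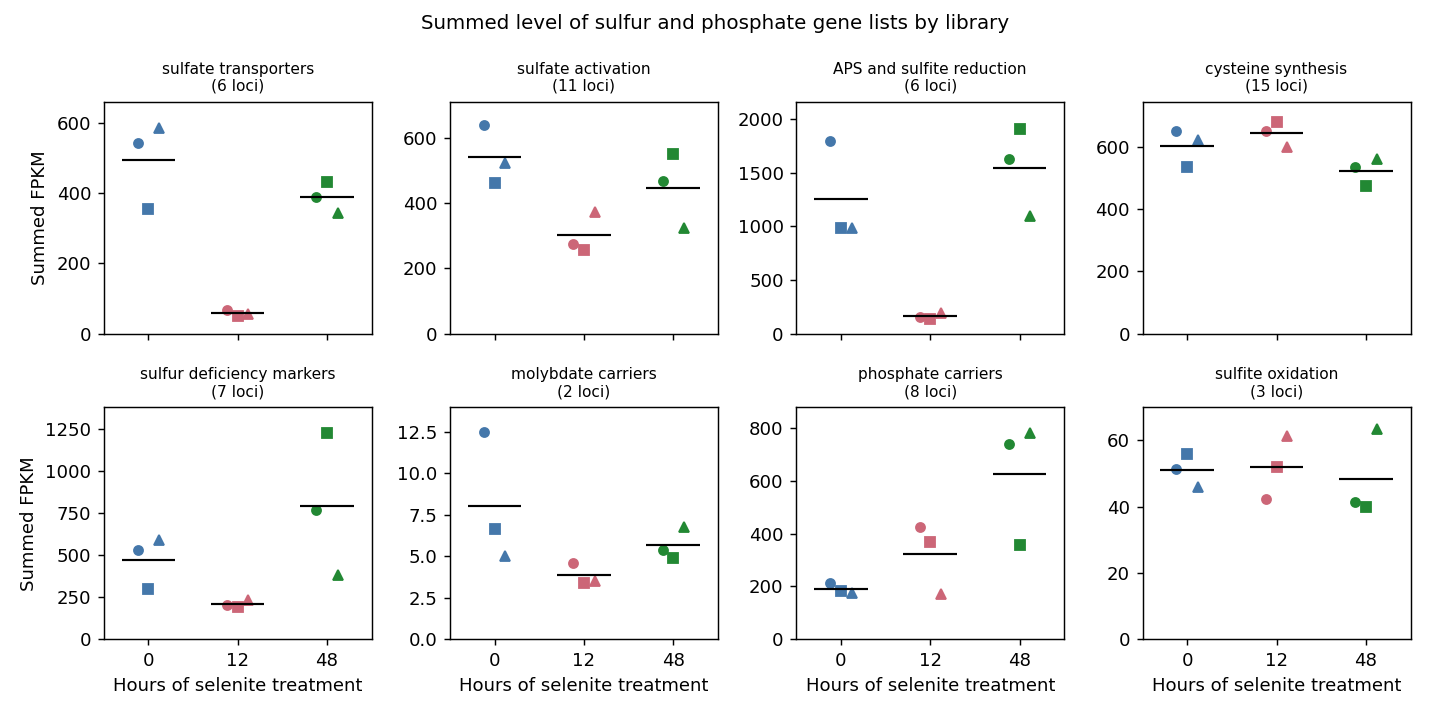
Summed FPKM of the sulfate transporter loci and of the 7 lists (panels) against hours of treatment; points are libraries, their shape is the replicate and lines are means of 3. The means of sulfate transporters, activation, reduction and shortage markers are lowest at 12 h, while the libraries of cysteine synthesis and sulfite oxidation overlap between 0 and 12 h.

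The loci most like sulfate transporter 3.3 in their profile over the 9 libraries were found among 6732 others with a mean of at least 10 FPKM, by the root mean square difference of centred log2 counts, scaled by depth. The nearest was a putative SOUL heme-binding protein at 0.421, followed by auxin-induced protein 6B (0.462), a putative endopeptidase Clp (0.474), cytochrome P450 71A3 (0.483) and a fatty acyl-CoA synthetase family protein (0.491). Then came alpha carbonic anhydrase 1 (0.497), heavy metal-associated isoprenylated plant protein 39 (0.507) and cytochrome P450 CYP736A12 (0.515). The median of the 6732 was 2.05. Among the family itself, 3.1 stood at 0.586, with 15 other loci nearer, and low affinity 3 at 0.636, with 28 nearer. Sulfate transporter 4.1 was farthest at 1.40, with 518 nearer. The putative SOUL protein had 123 ± 37.2 FPKM at 0 h, 7.77 ± 1.47 FPKM at 12 h and 66.2 ± 12.9 FPKM at 48 h.

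Against the summed counts of the family, heavy metal-associated isoprenylated plant protein 39 was nearest at 0.262. A putative phosphoenolpyruvate carboxylase (0.274), a localized small heat shock protein (0.300), the kinase CIPK2 (0.304) and auxin-induced protein 6B (0.318) came next, before a KefB-like potassium efflux protein (0.320), an ascorbate transporter (0.340) and bZIP transcription factor 46 (0.353). The median was 1.67, and low affinity 3, itself a part of the sum, stood at 0.278. These distances describe 9 libraries, whose depths differ and which were scaled by TMM.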

How the data were processed

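Leaf poly(A) RNA of 9 libraries was read from both ends of fragments of 300 ± 50 bp, according to the protocols in the labels. HISAT and StringTie appear in the submitters' processing notes, with neither a version nor a role. The sources used here give no build and no annotation. The authors deposited raw read counts per gene and, beside each count, an FPKM value, which stands at 0.0001 where the count is 0 and was read as 0. Members and lists were chosen with earlier results of these data known.

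Counts, singly and summed over the copies of a locus, were scaled by TMM (trimmed mean of M values) and compared by edgeR 4.0.16 (quasi-likelihood F-test, R 4.3.3). All 9 libraries entered with 1 mean per time, and p-values were Benjamini-Hochberg adjusted over all 24586 loci or 50878 genes. The SE follows from a log2 change and its F statistic. The biological coefficient of variation was 0.684 for loci and 0.843 for genes. TMM factors of loci were 1.23 to 1.30 at 12 h and 0.824 to 0.976 otherwise, and 3 counts are 0.0546 to 0.0763 CPM, for counting error only. The test was checked on simulated counts. Every member is named or counted. Of each list, the locus of smallest adjusted p per comparison was named by rule, and the other called loci of a list were named after their values were seen. The 8 nearest loci are named for likeness. Alternatives used DESeq2 1.42.0, limma 3.58.1, other scalings, filters and groupings of copies, a replicate block and single libraries left out. No sequences are shown.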

Additional observations from a re-analysis of the deposited data

How the results depend on the processing

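Across the alternatives, the 6 loci kept their direction at 12 h against 0 h and at 48 h against 12 h in every setting run, with log2 changes at 12 h of -4.74 to -3.93 for 3.3, -5.06 to -3.83 for 3.1, -3.52 to -2.83 for low affinity 3, -1.31 to -0.71 for 4.1, -2.26 to -1.45 for 1.3 and -3.11 to -1.30 for 2.1. With the libraries of like copy usage summed, 12 h is 1 sample taken to vary like the others, so in both comparisons that fit cannot decide on calls. The median log2 change over the 6 loci in that fit was -2.96 and 3.29, beside 0.03 and -0.05 over all loci. Where copies counted as 1 locus only within 2 Mb, 16 groups formed, of which 11 were lower at 12 h and 13 higher at 48 h against 12 h. Of all 32883 groups formed in this way, 1856 were called lower and 2855 higher in these comparisons. Leaving out 1 library gave 5 to 6 loci and 8 to 14 copies lower at 12 h, and 0 loci and 0 copies at 48 h against 0 h. At 48 h against 12 h, 6 loci and 8 to 17 copies were higher. Over all 24586 loci, 758 to 2175 were then lower at 12 h and 1331 to 2733 higher at 48 h against 12 h. Over all 50878 genes these counts were 734 to 2991 and 1320 to 4034. Across times, the pairing r was -0.0321 to 0.0366 for libraries of the same number and -0.0387 to 0.0435 for those of different numbers. The ranges overlap, so the numbers gave no sign of pairing. This r is read only between the kinds of pair, not as the likeness of whole libraries. A replicate block gave 6 loci and 8 copies at 12 h, 6 loci and 11 copies at 48 h against 12 h, and 0 at 48 h against 0 h. Over all loci it called 959 lower at 12 h and 1628 higher at 48 h against 12 h, and over all genes 687 and 1372. At 48 h against 0 h, DESeq2 called 1 copy and limma voom with quality weights 2, with the counts over all genes given above. The uncalled 48 h change against 0 h turned sign for 3.1 without 0 h replicate 2 (-0.19, and up to 0.48 when another library was left out). For 1.3 it turned sign under an FPKM minimum of 5 (-0.16), limma with a pseudocount of 1 (-0.022) or 0.1 (-0.028), without 48 h replicate 1 (-0.14, and up to 0.39 without another library) and with alike libraries summed (-0.0035). The cause was not tested. Of 144 locus values per comparison, 17 lost their call at 12 h, 12 of them for 2.1, and 6 lost it from 12 to 48 h. The fit with alike libraries summed, which cannot decide on calls that involve 12 h, is among these settings. The lists of other sulfur and phosphate genes were followed only as reported and with alike libraries summed.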
